A study of Mus musculus with 10 samples.

Results

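The genes described here are those of the mitochondrial genome, taken as every gene of the RNA-seq table whose symbol starts with mt-. They number 37 of the 55414 genes in the table, with 2 rRNA genes, 13 protein-coding genes and 22 tRNA genes. The cells were mpkCCD cells, an immortalized line from mouse kidney collecting duct (strain background C57BL/6) that serves as a model of the vasopressin-responsive principal cell. All of them were kept for 7 days in dDAVP, a vasopressin analog selective for the V2 receptor, at 0.1 nM, so no sample without dDAVP enters any comparison. The KO group held 5 samples labelled Camk2d knockout, named KO 1 to KO 5, each a clone grown from a single cell after CRISPR-Cas9 deletion of Camk2d, which codes for the δ isoform of Ca2+/calmodulin-dependent protein kinase 2. The intact group held 5 samples labelled wild type, intact, from 3 cell lines. These were the parental line and 2 clones that went through the transfection but kept Camk2d, each with 2 samples. The sources do not give whether the 2 samples of an intact clone were separate cultures, so the p-values below may in part measure technical spread.

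Each mitochondrion holds copies of a small circular DNA that codes for the rRNAs of the mitochondrial ribosome, a set of tRNAs and a few subunits of the respiratory chain and ATP synthase. Both of its strands are transcribed along nearly their whole length, and the long precursors are cut apart at the tRNAs that stand between the other genes. The rRNAs, mt-Rnr1 (12S, of the small ribosomal subunit) and mt-Rnr2 (16S, of the large subunit), lie first after the heavy-strand promoter, the same unit goes on through all mRNAs except mt-Nd6, and mt-Nd6 is made from the opposite, light-strand promoter. Collecting duct principal cells depend on mitochondrial ATP for sodium and water transport.

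The question was how far the lower mt-Rnr1 level of the KO clones was shared by the other genes of the same small genome. The values are TPM, an abundance in which reads on a gene are divided by its length and every sample has the same sum. The number of reads cannot be had from them, so the sequencing depth is unknown and counting error is not given. In the check of the labels, Camk2d was at 122.68 to 141.28 TPM in the intact samples and at 19.76 to 29.76 TPM in the KO clones (log2 difference -2.39, limma adjusted p = 1.2e-06). Among principal cell markers, Krt8 was at 1585 TPM or more and Krt18 at 5162 TPM or more in every sample, while Aqp3 averaged 1.81 TPM in intact and 2.36 TPM in KO samples, Scnn1b 0.246 and 0.156, and Elf5 0.022 and 0.028. The principal cell markers together summed to 11886 to 13287 TPM in the intact samples and to 8890 to 11780 TPM in the KO clones, of which Aqp2 was a large part (4318 ± 696 and 2485 ± 1024 TPM, mean ± SD, n = 5 each). The means of the other markers went both ways. Higher in KO samples were Hsd11b2 (19.5 TPM in intact and 45.3 TPM in KO samples, 114.93 TPM in KO 2), Scnn1a (168 and 181) and Gata3 (250 and 264). Lower were Avpr2 (235 and 205, 114.19 TPM in KO 2), Scnn1g (19.4 and 15.6) and Aqp4 (3.83 and 0.62). Krt8 (1823 and 1727) and Krt18 (5546 and 5350) were lower too. The median log2 difference of the 11 principal cell markers tested was -0.08. Of this list, 0 genes passed the adjusted threshold in limma. Aqp2 alone had an unadjusted p under 0.05, with lower values in KO, beside 2.46% of all genes tested. Of the markers of other kidney cells, 10 of 11 averaged under 1 TPM, with Slc34a1, Slc12a1 and Umod listed at 0. The exception was Lrp2, at 7.54 to 12.84 TPM in intact samples and 6.51 to 14.91 TPM in KO clones. Of 6 intercalated cell markers, 4 averaged under 1 TPM. Their sum of 232 to 326 and 141 to 381 TPM was mostly Car2, and Atp6v1b1 was at 23.62 to 30.73 and 21.82 to 49.33 TPM. The part that these marker levels play in the values below was not tested.

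Of the 37 genes, 9 were above 0 TPM in all 10 samples. These were both rRNA genes and 7 of 13 protein-coding genes: mt-Nd1, mt-Nd2, mt-Nd4, mt-Nd5 and mt-Nd6, which code for subunits of complex I (NADH dehydrogenase), mt-Cytb, the cytochrome b of complex III, and mt-Co1, the catalytic subunit of complex IV (cytochrome c oxidase). Listed at 0 in every sample were 5 protein-coding genes, mt-Co2 and mt-Co3 of complex IV, mt-Atp6 and mt-Atp8 of ATP synthase, and mt-Nd4l of complex I. The complex I gene mt-Nd3 was listed at 0.35 TPM in intact clone 2-1, at 0.29 TPM in intact clone 2-2 and at 0 in all the others. Of the 22 tRNA genes, 21 were listed at 0 in every sample. The tRNAs are 59 to 75 bases long, and the first-strand cDNA was made with a kit that primes at poly(A) tails and sequenced as 50-bp pairs. The part of the kit and of the read length in these zeros was not tested.

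The tRNA gene with values was mt-Tl1, the tRNA for leucine that stands between mt-Rnr2 and mt-Nd1. It was at 96.53 TPM in intact clone 1-1, at 45.94 TPM in KO 1, at 91.2 TPM in KO 2 and at 0 in the other 7 samples. The values occur in both groups, and the second sample of the same intact clone was listed at 0. On a gene of 75 bases each read carries a large TPM, and the number of reads behind these values is unknown, so no difference was drawn from them. The sequences around the rRNA genes are shown because the values of neighbouring genes differ so widely over a few bases. Each line gives the last 24 bases of one gene, the tRNA in capitals and the first 24 bases of the next gene, on the plus strand of the mitochondrial chromosome (GENCODE M21 transcripts on GRCm38, to which 37 of 37 gene IDs matched).
mt-Rnr1, mt-Tv, mt-Rnr2: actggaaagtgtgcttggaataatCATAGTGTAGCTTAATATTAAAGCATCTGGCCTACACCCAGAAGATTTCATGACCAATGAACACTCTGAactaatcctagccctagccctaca
mt-Rnr2, mt-Tl1, mt-Nd1: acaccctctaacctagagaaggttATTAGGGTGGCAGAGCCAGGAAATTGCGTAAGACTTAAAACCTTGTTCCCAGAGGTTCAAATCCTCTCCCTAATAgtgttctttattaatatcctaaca
In the first line mt-Tv, the tRNA for valine, was listed at 0 between rRNAs that averaged 132 and 1220 TPM in the intact samples.

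The 5 protein-coding genes listed at 0, and mt-Nd3 between them, lie within a stretch of the mitochondrial genome that matches a run of nuclear pseudogenes. On GRCm38, 7 annotated unprocessed pseudogenes on chr1:24611535-24616197 (minus strand) follow the order of the mitochondrial genes over chrM:6381-11042, that is 4663 bases on chromosome 1 against 4662 bases on the mitochondrial genome. The pseudogenes Gm28661, Gm10925, Gm28437 and Gm10222 were identical to mt-Co2 (681 of 681 bases), mt-Atp6 (678 of 678), mt-Co3 (783 of 783) and mt-Nd4l (294 of 294). Gm28439 was identical to the first 876 bases of mt-Nd4, Gm28438 to mt-Nd3 at 344 of 345 bases, and Gm29216 to the last part of mt-Co1 at 486 of 492 bases. All 7 pseudogenes were also listed at 0 in all 10 samples. Measured as 50-base windows, the share of a gene found in an annotated nuclear transcript was 100% for mt-Co2, 99.9% for mt-Co3, 99.5% for mt-Atp6, 98.8% for mt-Nd4l and 97.99% for mt-Nd3. The share was 62.2% for mt-Nd4 and 51.1% for mt-Co1, which reach out of the copied stretch and were above 0 in every sample. It was 8.19% for mt-Nd2, 7.61% for mt-Nd5, 1.04% for mt-Rnr2, and 0% for mt-Rnr1, mt-Nd1, mt-Nd6 and mt-Cytb.

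Of the 6 protein-coding genes wholly inside the copied stretch, 5 were listed at 0 in all samples and mt-Nd3 in all but 2. All 5 protein-coding genes wholly outside it were above 0 in every sample. mt-Atp8 has no annotated nuclear copy, but 233 bases separate the copies of mt-Co2 and mt-Atp6 on chromosome 1, the same number as on the mitochondrial genome, where mt-Atp8 lies and overlaps mt-Atp6 by 43 bases. The sources do not give how reads that match several places were assigned, and the part of the nuclear copy in these zeros was not tested. A 0 of these genes therefore says only what the table lists. Whether the shared windows of mt-Co1 and mt-Nd4 bear on their levels was not tested either.

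The start of mt-Co2, and the stretches where the copies of mt-Nd3 and mt-Co1 differ from their source, show how little separates the copies. Capitals mark the differing bases, positions are counted from 1 at the 5′ end of the mitochondrial gene, and each pseudogene is written in its own sense.
mt-Co2 bases 1 to 80, and Gm28661 alike: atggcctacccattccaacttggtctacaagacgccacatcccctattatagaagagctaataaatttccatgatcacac
mt-Nd3 bases 1 to 80: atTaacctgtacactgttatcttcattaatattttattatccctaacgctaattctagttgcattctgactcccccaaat
Gm28438: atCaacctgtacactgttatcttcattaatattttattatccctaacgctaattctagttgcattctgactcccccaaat
mt-Co1 bases 1054 to 1113: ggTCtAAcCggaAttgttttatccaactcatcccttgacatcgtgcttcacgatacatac
Gm29216: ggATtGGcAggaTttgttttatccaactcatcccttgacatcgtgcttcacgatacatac
The change in Gm28438 is T3C. Those in Gm29216 are T1056A, C1057T, A1059G, A1060G, C1062A and A1066T, all within the first bases of the copy. The other nuclear genes that share windows were at or close to 0, with Gm13340 (a copy of mt-Co1) at 0.11 to 0.51 TPM, Gm13341 (mt-Co2) at 0 to 0.6 TPM, Gm20594 (mt-Rnr2) at 0 to 0.46 TPM and Gm4076 (mt-Nd5) at 0 to 0.13 TPM. Gm13339, Gm11407 and Gm11512 were listed at 0. All 15 nuclear genes together summed to 0.13 to 0.95 TPM per sample.

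**Figure D1:**
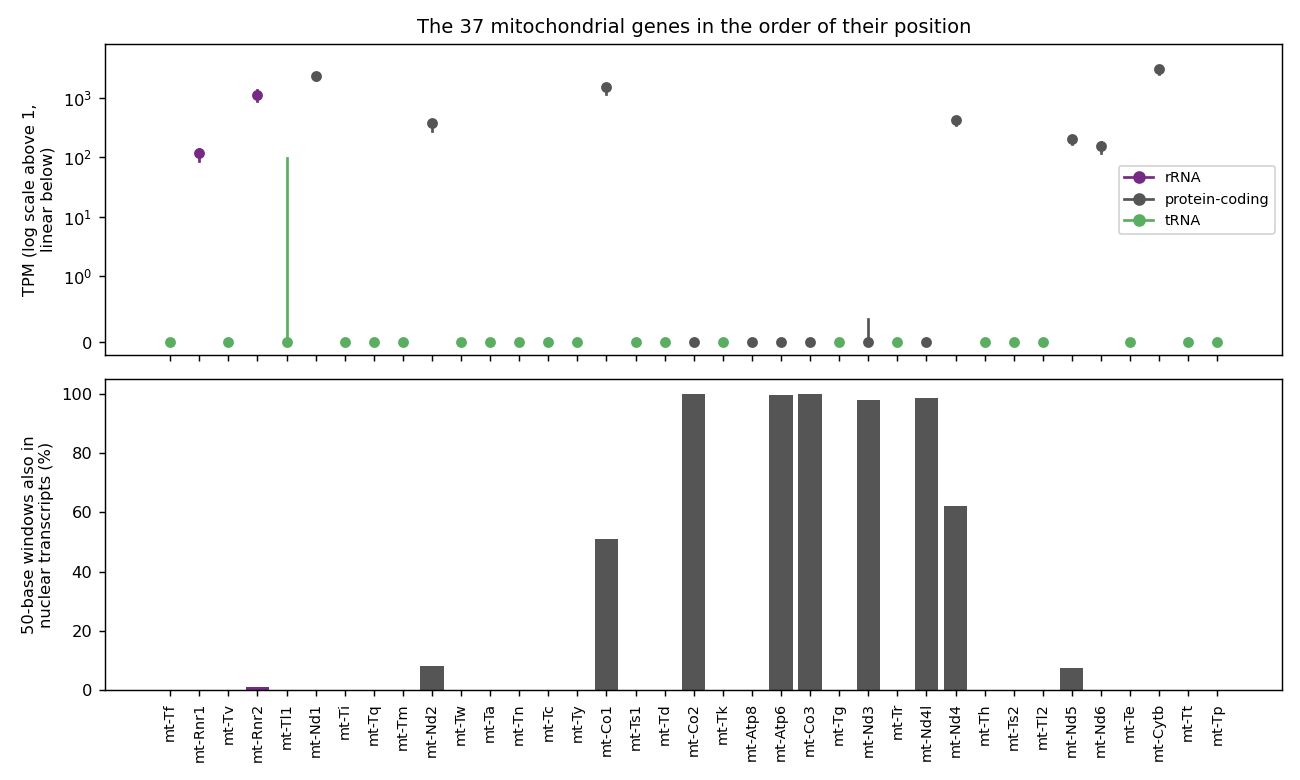
The upper panel plots, for the 37 genes in the order of their position, the median TPM over the 10 samples (point) and the range (line) on an axis that is logarithmic above 1 and linear below, with rRNA, protein-coding and tRNA genes in different colours. The lower panel gives the percent of 50-base windows of each gene that also occur in an annotated nuclear transcript, and the protein-coding genes at 0 in all samples, mt-Atp8 excepted, have bars of 98.8% to 100%, while mt-Atp8 has no bar.

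TPM are scaled by gene length, so levels of different genes can be set side by side on that scale, with limits here. The part of the windows that mt-Co1 and mt-Nd4 share with nuclear copies, and of poly(A) priming for each RNA, the rRNAs among them, was not tested. As listed in the intact samples, the order of the mean TPM was mt-Cytb (2983 TPM), mt-Nd1 (2200), mt-Co1 (1394), mt-Rnr2 (1220), mt-Nd4 (409), mt-Nd2 (367), mt-Nd5 (201), mt-Nd6 (169) and mt-Rnr1 (132). The ranges over the intact samples overlapped between mt-Co1 and mt-Rnr2 and between mt-Nd4 and mt-Nd2 and did not overlap between the other neighbours. Sample by sample, mt-Nd4 was above mt-Nd2 in all 10 samples. mt-Rnr1 was the lowest of the 9 in each intact sample, at 0.0999 to 0.113 of mt-Rnr2. As a share of the summed TPM of a sample, the 37 genes made up between 0.803% and 1.00% in the intact group and between 0.800% and 0.958% in the KO group. These shares count the genes listed at 0 as 0, so they rest almost wholly on the 9 genes above.

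KO clones were then compared with intact samples, gene by gene. The 12S rRNA mt-Rnr1 was lower in every KO clone than in every intact sample, as were 0.445% of all genes tested, and the KO mean was 76.9% of the intact mean. The 16S rRNA mt-Rnr2 and the light-strand mRNA mt-Nd6 were lower on average, at 85.6% and 84.9%, with overlap between the groups. For the 6 heavy-strand mRNAs above 0 in all samples the interval of the difference included 0, with means of 409 TPM in both groups for mt-Nd4 and of 2977 TPM in KO and 2983 TPM in intact samples for mt-Cytb as examples. Of the 37 genes, 11 were abundant enough to be among those tested in limma (2 rRNA, 8 protein-coding and 1 tRNA gene), and 0 of these passed the adjusted threshold of 0.05, which 1 of the 20000 genes tested did (0.005%), and that gene was Camk2d. An unadjusted p under 0.05 with lower values in KO was found for both rRNA genes and for 1 of the 8 protein-coding genes tested, beside 2.46% of all genes tested. It was found with higher values in KO for 0 of these genes, beside 4.52%. In these bulk samples less RNA per mitochondrion and fewer mitochondria per cell, or fewer cells of a kind, cannot be told apart.

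mt-Rnr1 (ENSMUSG00000064337, chrM:70-1024, plus strand, 955 bases, a single exon) was at 123.22 TPM in the parental line, 125.88 and 136.46 TPM in the samples of intact clone 1, and 138.95 and 135.12 TPM in those of intact clone 2. It was at 111.12 TPM in KO 1, 92.1 in KO 2, 110.81 in KO 3, 108.03 in KO 4 and 85.33 in KO 5. The highest KO clone thus lay below the lowest intact sample, which was the parental line, and KO 5 and KO 2 lay below the other KO clones. The means were 132 ± 6.94 and 101 ± 12 TPM (SD, n = 5 each). The log2(TPM + 1) difference was -0.38 (SE 0.08, 95% interval -0.56 to -0.21), with an unadjusted p of 0.000581 and an adjusted p of 0.378 in limma with Benjamini-Hochberg adjustment over 20000 genes. The two-sided exact permutation test gave p = 0.00794, the smallest value that 252 arrangements of 5 against 5 allow. mt-Rnr1 was singled out with these values known, so they are no independent evidence of a difference.

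mt-Rnr2 (ENSMUSG00000064339, chrM:1094-2675, plus strand, 1582 bases) is cut from the same precursor, next to mt-Rnr1. It was at 1103.2 TPM in the parental line, 1115.56 and 1224.51 TPM in intact clone 1, and 1302 and 1352.56 TPM in intact clone 2. It was at 1154.55, 886.03, 1101.48, 1137.15 and 942.93 TPM in KO 1 to KO 5. KO 2 and KO 5 were again the lowest, 3 KO clones lay below the lowest intact sample, and KO 1 and KO 4 lay within the intact range. The means were 1220 ± 111 and 1044 ± 122 TPM. The log2 difference was -0.23 (SE 0.09, 95% interval -0.43 to -0.02, limma p = 0.0339, adjusted p = 0.683), and the exact permutation p was 0.0635. When each cell line counted once the limma p was 0.108, and in a mixed model with a random effect of the line it was 0.0648. Without intact clone 1-2, 2-1 or 2-2 it was 0.0610, 0.0780 or 0.0856, and without KO 2 or KO 5 it was 0.0744 or 0.0835.

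mt-Nd6 (ENSMUSG00000064368, chrM:13552-14070, minus strand, 519 bases) codes for a membrane subunit of complex I and is the one mRNA of the light strand. It was at 171.82 TPM in the parental line, 145.13 and 168.31 TPM in intact clone 1, and 176.89 and 182.01 TPM in intact clone 2. It was at 145.72, 115.14, 159.44, 151.19 and 145.48 TPM in KO 1 to KO 5. KO 2 alone lay below the lowest intact sample, which was intact clone 1-1, and the other KO clones lay between that sample and the rest of the intact group. The means were 169 ± 14.2 and 143 ± 16.8 TPM, the log2 difference was -0.24 (SE 0.09, 95% interval -0.44 to -0.04, limma p = 0.0230, adjusted p = 0.651) and the exact permutation p was 0.0397. Without intact clone 2-1 or 2-2 the limma p was 0.0528 or 0.0580. The library kit does not mark the strand, so reads from mt-Nd6 and from heavy-strand RNA across the same bases cannot be told apart.

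**Figure D2:**
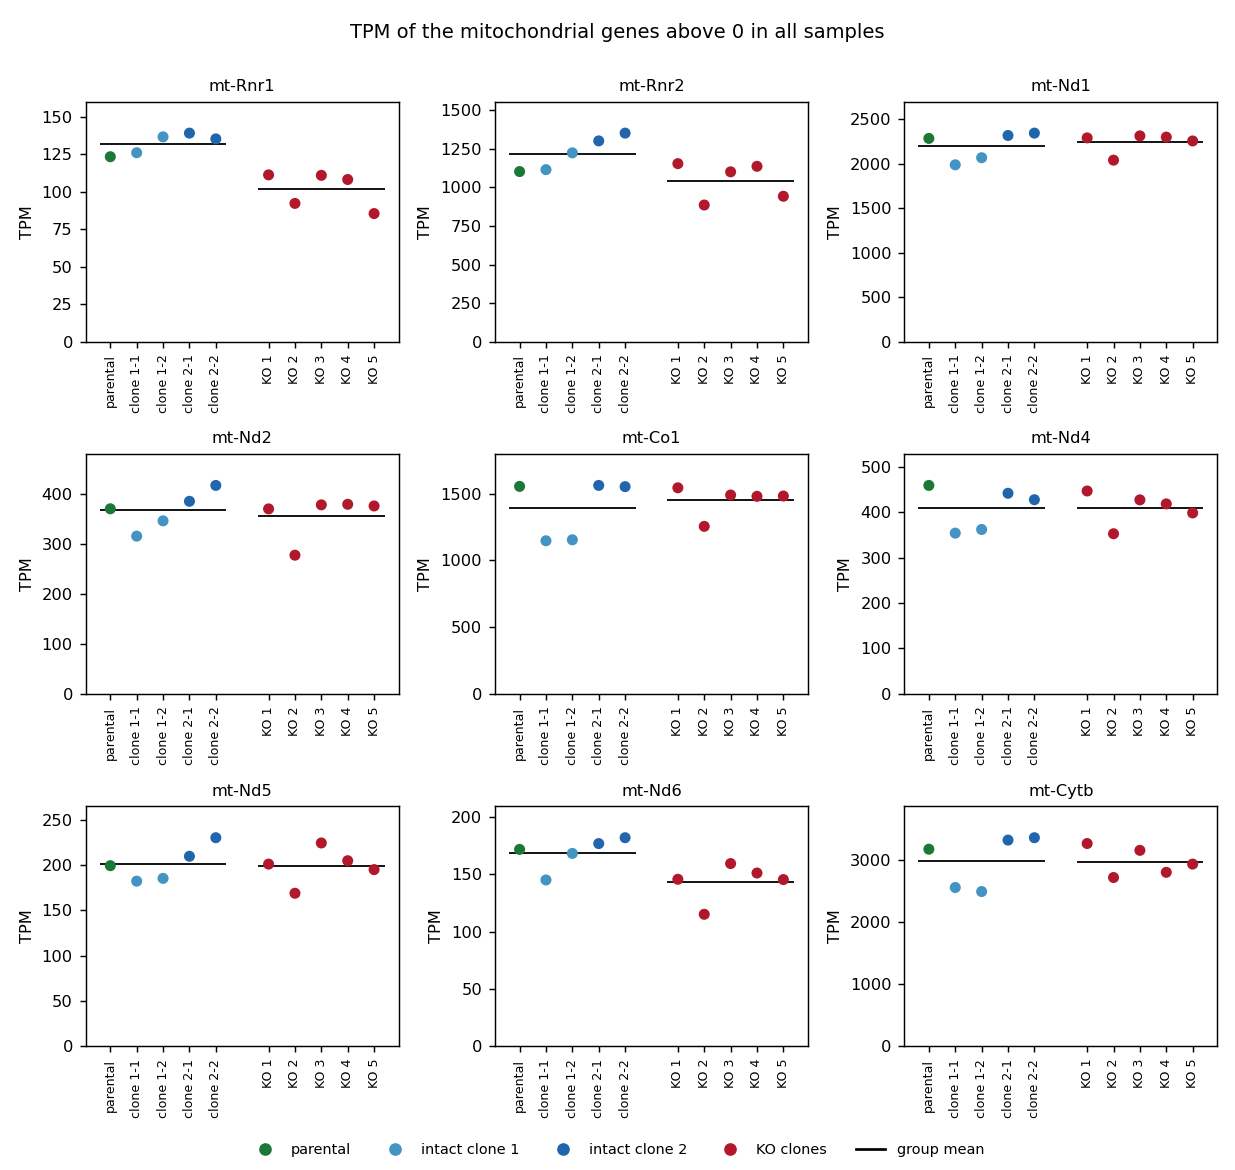
TPM of the 9 mitochondrial genes above 0 in all samples, 1 panel per gene with its axis from 0, 1 point per sample and a line at each group's mean. For mt-Rnr1 the KO clones (85.33 to 111.12 TPM) all lie below the intact samples (123.22 to 138.95 TPM), while the groups overlap in the other 8 panels, where intact clone 1 and KO 2 are often the lowest points.

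The heavy-strand mRNAs lie downstream of the rRNAs in the same transcription unit, and their group means were close. mt-Nd1 (chrM:2751-3707), the next gene but one after mt-Rnr2, was at 2284.65 TPM in the parental line, 1987.99 and 2067.63 TPM in intact clone 1, 2317.76 and 2344.42 TPM in intact clone 2, and 2290.59, 2040.22, 2313.17, 2299.52 and 2256.26 TPM in KO 1 to KO 5. All 5 KO clones lay within the intact range, and the log2 difference was 0.03 (95% interval -0.13 to 0.18, limma adjusted p = 0.951). mt-Cytb (chrM:14145-15288), the last protein-coding gene of the unit, was at 3176.47 TPM in the parental line, 2558.78 and 2493.96 TPM in intact clone 1, 3323.04 and 3361.75 TPM in intact clone 2, and 3268.05, 2719.83, 3158.05, 2803.9 and 2936.48 TPM in KO 1 to KO 5. Here too the KO clones lay within the intact range, with a log2 difference of 0.0059 (95% interval -0.23 to 0.24).

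mt-Co1 (chrM:5328-6872) averaged 1394 ± 222 TPM in intact samples and 1450 ± 112 TPM in KO clones (log2 difference 0.07, 95% interval -0.18 to 0.32). mt-Nd2 (chrM:3914-4951) averaged 367 ± 38.5 and 356 ± 44.1 TPM, with an interval of -0.27 to 0.18. mt-Nd4 (chrM:10167-11544) averaged 409 ± 47.9 and 409 ± 35.8 TPM, with an interval of -0.19 to 0.20. mt-Nd5 (chrM:11742-13565), which overlaps mt-Nd6 by 14 bases on the other strand, averaged 201 ± 19.5 and 199 ± 20.03 TPM, with an interval of -0.20 to 0.17. The intervals of the 6 heavy-strand mRNAs above 0 in all samples include 0, and the smallest of their exact permutation p-values was 0.643, for mt-Co1. mt-Nd3, the other protein-coding gene among the 8 tested, was above 0 in the 2 samples of intact clone 2 alone (exact permutation p = 0.444), and no fold is given for it. These intervals still allow differences of the size measured for mt-Rnr2 in mt-Nd2 and mt-Cytb, and a p above the threshold does not show that the levels were alike. The median log2 difference was -0.30 over the 2 rRNA genes and 0.0028 over the 7 protein-coding genes above 0 in all samples, mt-Nd3 left out. It was 0.02 over all genes tested.

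**Figure D3:**
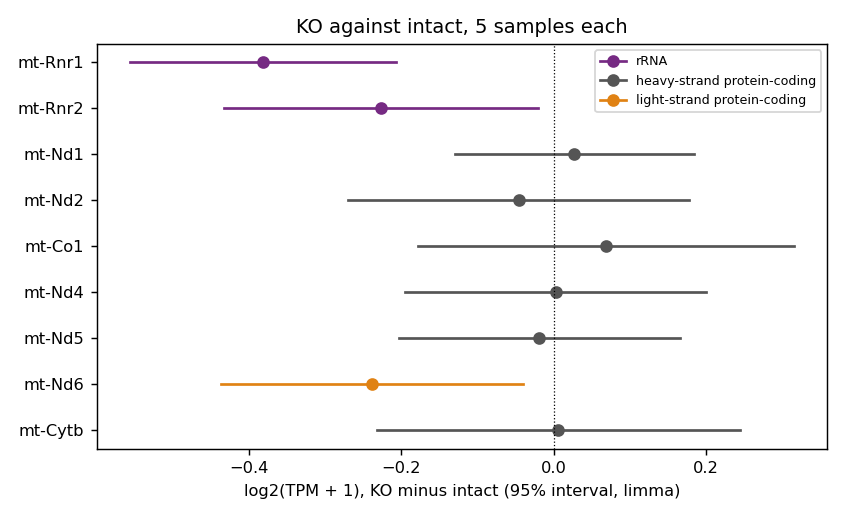
Difference in mean log2(TPM + 1), KO minus intact, for the 9 genes above 0 in all samples, with the 95% interval from limma as a line and the colour giving the class. The intervals of mt-Rnr1, mt-Rnr2 and mt-Nd6 lie below 0, and those of the 6 heavy-strand mRNAs, centred between -0.05 and 0.07, include it.

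Sums and ratios within a sample were taken next, as values without a test. The rRNAs summed to 1226 to 1488 TPM (1351 ± 117) in intact samples and to 978 to 1266 TPM (1146 ± 133) in KO clones, with overlap. The protein-coding genes summed to 6690 to 8515 TPM (7723 ± 910) and to 6929 to 8266 TPM (7774 ± 524). Most of the spread of the protein-coding sum lay within the intact group, where both samples of intact clone 1 were low (6690 and 6777 TPM) and the parental line and intact clone 2 were high (8216 to 8515 TPM). The complex I genes summed in KO clones to 100% of their intact mean, with mt-Nd4l listed at 0. The values for complex III (99.8%) and complex IV (104%) are those of mt-Cytb and mt-Co1 alone, since mt-Co2 and mt-Co3 were listed at 0. The genes for ATP synthase were listed at 0 as well.

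The ratio of mt-Rnr1 to mt-Rnr2 does not depend on the scaling of a sample. It was 0.112 in the parental line, 0.113 and 0.111 in intact clone 1, 0.107 and 0.0999 in intact clone 2, and 0.0962, 0.104, 0.101, 0.0950 and 0.0905 in KO 1 to KO 5. The means were 0.109 ± 0.00536 and 0.0973 ± 0.00519, so mt-Rnr1 was the lower one of the rRNAs by more in KO clones on average, but intact clone 2-2 lay below KO 2 and KO 3. Further ratios were chosen after the values were seen. mt-Rnr1 relative to the summed protein-coding genes was 0.0150 to 0.0201 in intact samples and 0.0110 to 0.0140 in KO clones, without overlap. mt-Nd6 relative to mt-Nd5, its neighbour on the other strand, was 0.791 to 0.909 (mean 0.841) and 0.682 to 0.746 (mean 0.721), also without overlap. How often ratios of other genes separate the groups was not computed, so no difference is drawn from either ratio. The ratio of mt-Cytb to mt-Nd1, the last to the first mRNA of the heavy strand, was 1.21 to 1.43 in intact samples and 1.22 to 1.43 in KO clones, with nearly the same range.

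**Figure D4:**
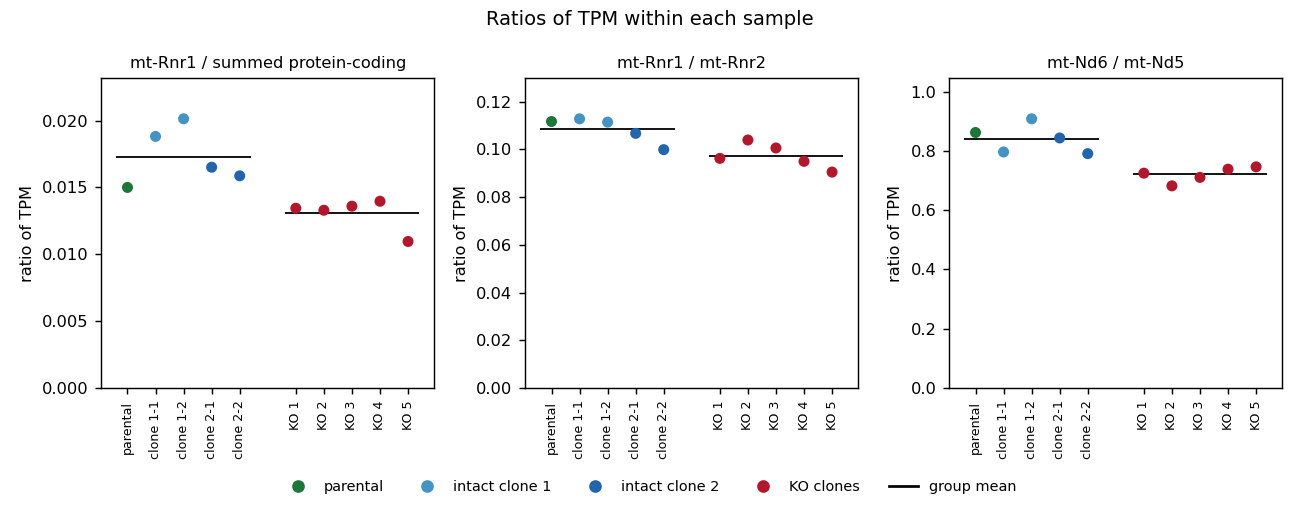
Ratios of TPM within each sample for mt-Rnr1 to the summed protein-coding genes, mt-Rnr1 to mt-Rnr2 and mt-Nd6 to mt-Nd5, with 1 point per sample, a line at each group's mean and axes from 0. The groups are apart in the first panel (0.0150 to 0.0201 and 0.0110 to 0.0140) and in the last, and overlap in the middle panel. The ratios of the first and the last panel were chosen after the values were seen.

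By cell line, the intact lines differed from each other for most genes. mt-Co1 averaged 1151 TPM in intact clone 1 and 1557 TPM in intact clone 2, a log2 difference of 0.44, while the samples of a clone differed by at most 0.0091. mt-Cytb averaged 2526 and 3342 TPM, a log2 difference of 0.40, with at most 0.04 within a clone. For mt-Nd4, mt-Nd2, mt-Nd5, mt-Nd1, mt-Nd6 and mt-Rnr2 the difference between the clones was 0.28, 0.28, 0.26, 0.20, 0.20 and 0.18, and the samples of the 2 clones did not overlap. For mt-Rnr1 it was 0.06, and they did overlap. Intact clone 1 was thus the lowest intact line for the mRNAs, mt-Nd6 included, whereas both rRNAs were lowest in the parental line. Over the 5 KO clones the range of log2 values ran from 0.18 for mt-Nd1 to 0.47 for mt-Nd6. KO 2 was the lowest KO clone for 8 of the 9 genes, and KO 5 for mt-Rnr1. With 2 samples of 2 clones, these differences between lines were not tested.

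**Figure D5:**
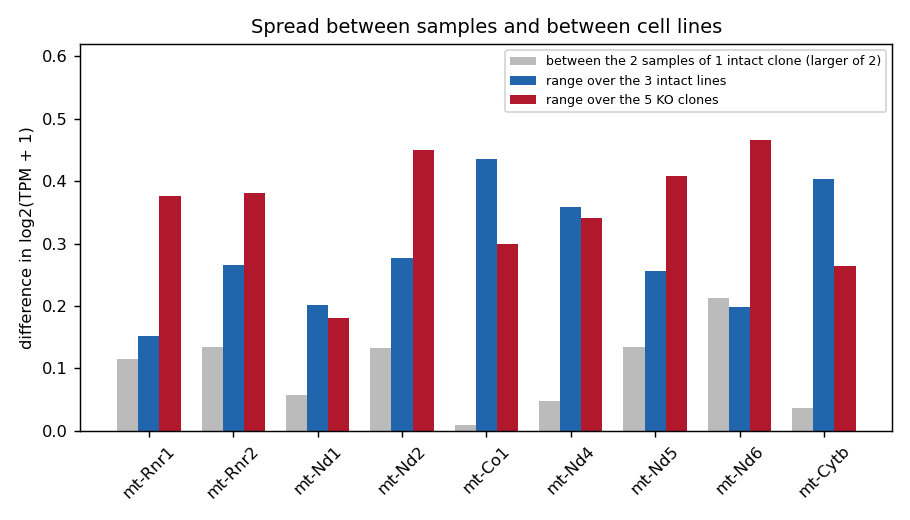
Spread of log2(TPM + 1) for the 9 genes, with bars for the larger difference between the 2 samples of an intact clone, the range over the 3 intact lines and the range over the 5 KO clones. For mt-Co1 and mt-Cytb the range over intact lines (0.44 and 0.40) is far above the difference within a clone. For mt-Rnr1 the range over KO clones (0.38) is above both other bars, as it is for mt-Rnr2, mt-Nd2, mt-Nd5 and mt-Nd6.

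Correlations between the genes are given as a description over 10 samples, which share groups and in part cell lines. Among the 6 heavy-strand mRNAs above 0 in all samples, the 15 pairs had Pearson r of 0.69 to 0.96 (median 0.87) on log2(TPM + 1). mt-Rnr1 had r of -0.05 to 0.35 with these mRNAs, 0.90 with mt-Rnr2 and 0.76 with mt-Nd6. mt-Nd6 had r of 0.41 to 0.81 with the heavy-strand mRNAs. Of all genes tested, those with the highest r with mt-Rnr1 were Fam50a (0.95), 3830406C13Rik (0.92), H2-T22 (0.91), Map1b (0.90) and, at rank 5, mt-Rnr2. mt-Nd6 stood at rank 84.

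The nuclear genes that transcribe, cut, mature and copy the mitochondrial genome were counted in lists, of which 0 genes passed the adjusted threshold in limma. Among 9 genes of mitochondrial transcription, 0 had an unadjusted p under 0.05 and the median log2 difference was 0.04. The RNA polymerase Polrmt was at 83.4 ± 8.15 TPM in intact samples and 85.6 ± 6.20 TPM in KO clones, and Tfam, which packages the DNA and starts transcription, at 91.3 ± 3.75 and 93.4 ± 5.00 TPM. The promoter factor Tfb2m was at 11.1 ± 1.151 and 12.6 ± 0.542 TPM (log2 difference 0.17, exact permutation p = 0.0635, limma adjusted p = 0.729), and the elongation factor Tefm at 36.98 ± 2.08 and 39.0 ± 2.10 TPM. The log2 differences of Polrmt, Tfam and Tefm were 0.04, 0.03 and 0.08.

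Among 19 genes of RNA processing, polyadenylation and turnover, 1 was higher and 1 lower in KO at an unadjusted p under 0.05, beside 4.52% and 2.46% of all genes tested, with a median log2 difference of 0.03. The lower one was Slirp, the RNA-binding partner of Lrpprc, at 351.93, 414.72, 390.4, 404.19 and 379.17 TPM in the intact samples (parental line, clone 1, clone 2) and 276.73, 306.76, 365.92, 342.16 and 388.96 TPM in KO 1 to KO 5 (log2 difference -0.22, exact permutation p = 0.0556, limma adjusted p = 0.685). KO 1, KO 2 and KO 4 lay below the intact range, while Lrpprc itself, which holds mitochondrial mRNAs stable, was at 42.2 ± 3.34 and 42.9 ± 1.47 TPM. The higher one was Tbrg4, also named Fastkd4, an RNA-binding protein of the mitochondrial matrix, named here after its values were seen. It was at 8.81 to 13.16 TPM in intact samples and at 15.11 to 18.5 TPM in KO clones without overlap, as were 1.2% of all genes tested in that direction (log2 difference 0.50, exact permutation p = 0.00794, limma adjusted p = 0.378). Elac2, an enzyme that cuts out tRNAs, was at 37.3 and 38.9 TPM (log2 difference 0.06). Trmt10c, a subunit of another such enzyme but not the part that cuts, was at 29.9 and 28.7 TPM (-0.07). The poly(A) polymerase Mtpap was at 27.6 and 28.2 TPM (0.03) and the RNA granule protein Grsf1 at 72.0 and 76.1 TPM (0.08).

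Among 23 genes that modify or assemble the rRNAs, 1 was higher in KO at an unadjusted p under 0.05 (beside 4.52% of all genes tested), Mettl17 (65.7 ± 9.34 and 76.0 ± 4.48 TPM, log2 difference 0.22, exact permutation p = 0.0556, limma adjusted p = 0.697), a factor of the small ribosomal subunit named after its values were seen. The median of the list was 0.06. Of the other genes of this list that act on the small subunit or its 12S rRNA, 4 are named whatever their change. The dimethylase Tfb1m was at 13.7 and 14.3 TPM (log2 difference 0.07), the methyltransferase Nsun4 at 8.56 and 9.18 TPM (0.09), the methyltransferase Mettl15 at 16.9 and 16.2 TPM (-0.06) and the chaperone Eral1 at 55.6 and 56.1 TPM (0.01).

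Among 13 genes of mitochondrial DNA replication and nucleotide supply, 2 were higher and 1 lower in KO at an unadjusted p under 0.05, beside 4.52% and 2.46% of all genes tested, with a median of -0.0024. The DNA polymerase Polg was at 53.6 ± 4.90 and 59.9 ± 4.21 TPM (log2 difference 0.16, exact permutation p = 0.0714, limma adjusted p = 0.708) and the helicase Twnk at 36.1 ± 2.09 and 40.5 ± 2.94 TPM (0.16, exact permutation p = 0.0317, limma adjusted p = 0.649). The thymidine kinase Tk2, named after its values were seen, was at 34.7 ± 1.65 and 30.9 ± 2.05 TPM (-0.16, exact permutation p = 0.0238, limma adjusted p = 0.618), and the single-strand binding protein Ssbp1 at 114 and 110 TPM (-0.06). Among 8 regulators of mitochondrial biogenesis, 1 was higher at an unadjusted p under 0.05, beside 4.52% of all genes tested. It was the coactivator Pprc1 (53.9 ± 1.81 and 59.8 ± 4.83 TPM, 0.14, exact permutation p = 0.0556, limma adjusted p = 0.663), also named after its values were seen. The coactivator Ppargc1a varied most between lines, with 17.46 TPM in the parental line, 1.45 and 1.75 TPM in intact clone 1, 7.56 and 7.13 TPM in intact clone 2, and 39.98, 23.85, 5.44, 8.75 and 10.38 TPM in KO 1 to KO 5 (log2 difference 1.28, 95% interval -0.14 to 2.69, exact permutation p = 0.111, limma adjusted p = 0.755). The lowest values were those of intact clone 1 and the highest that of KO 1. The transcription factors Nrf1 (96.5 and 97.0 TPM) and Esrra (22.0 and 23.6 TPM) differed by 0.01 and 0.08.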

How the data were processed

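RNA-seq of 10 samples (5 Camk2d KO clones, 5 Camk2d-intact samples) was used. The authors made poly(A)-primed full-length cDNA, aligned 50-bp read pairs with STAR 2.7.10b to the mouse genome with Ensembl release 106 and quantified genes with RSEM 1.3.1. The authors deposited TPM for each gene, and 0 sample columns stayed unused. Their own comparison used edgeR and expected counts, which were not used here.

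The 20000 genes with the highest mean TPM (at least 0.049) were compared as log2(TPM + 1), with a pseudocount of 1, using limma 3.58.1 in R 4.3.3 (lmFit, eBayes with a trend) and Benjamini-Hochberg adjustment with a threshold of 0.05. A log2 difference on this scale understates the change of low genes. For single genes, a two-sided exact permutation test over the samples was added. On simulated data with 200 of 20000 genes changed by a log2 ratio of 0.5, 1 or 2, limma recovered 60%, 89.5% or 98.5%. The simulated samples were independent, and the changed genes had a mean log2(TPM + 1) above 1. In the data, samples of 1 cell line were correlated (consensus correlation 0.60) and 1 gene passed the threshold. The percentages therefore do not carry over to the data.

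Positions, sequences and 50-base windows come from GENCODE M21 on GRCm38, a different release from the authors'. No coordinate was in their table. Python 3.11.15 with pandas 2.3.3, numpy 2.4.6, scipy 1.17.1 and matplotlib 3.10.9 was used otherwise.

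The genes and lists were chosen with earlier results of these data known. The rule for named genes took all genes starting with mt-, 20 fixed genes of the lists whatever their change, list genes with an adjusted p under 0.05 (0 were found), nuclear genes that share windows, Camk2d and the 5 genes most like mt-Rnr1. Apart from mt-Tv, the tRNA genes listed at 0 are counted without their names, as is 1 of the nuclear genes. All 12 principal cell markers are named. The other cell type markers are named from the marker lists, for their level or for being near 0, and were picked from these after their values were seen. Tbrg4, Mettl17, Tk2 and Pprc1 fall outside the rule and were named for an unadjusted p under 0.05, after their values were seen. Alternatives changed the pseudocount, filter, scaling, moderation, treatment of cell lines, nuclear copies, threshold and samples.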

Additional observations from a re-analysis of the deposited data

Results flagged for a closer look

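In the KO group, 1 sample stood apart from the other 4 for 3 genes, and in each case it was KO 2, on the low side. KO 2 was at 2040.22 TPM for mt-Nd1, where its gap to the next clone was 0.792 of the group's range. It was at 277.3 TPM for mt-Nd2, with a gap of 0.910 of the range, and at 1255.03 TPM for mt-Co1, with a gap of 0.779. The limit for 5 values is 0.71 of the range. Chance alone gives such a sample in about 1 in 20 groups, and 26 groups of 5 values were examined. The 3 genes were correlated across samples (r of 0.76 to 0.96) and are not separate observations. KO 2 was not the lowest KO clone for mt-Rnr1.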

How the results depend on the processing

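For mt-Rnr1 the log2 difference was -0.41 to -0.37 over 13 alternatives (limma p 0.000428 to 0.00530, adjusted p 0.258 to 1.00) and -0.42 to -0.32 when each sample was left out in turn, and the unadjusted p stayed under 0.05 in all 24 settings. For mt-Rnr2 it was -0.26 to -0.19 and -0.26 to -0.17, with p under 0.05 in 16 of 24 settings. For mt-Nd6 it was -0.27 to -0.24 and -0.29 to -0.16, with p under 0.05 in 22 of 24. The number of rRNA genes with an unadjusted p under 0.05 was 1 in place of 2 with quantile normalization, when each line counted once and with a random effect of the line, and 1 to 2 with a sample left out, where mt-Rnr2 was the gene lost. The number of protein-coding genes was 0 to 1 with a sample left out. The causes were not tested. No tested gene of the mitochondrial genome passed the adjusted threshold under any alternative run, including 0.1 as threshold, or with a sample left out.

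Signs of differences close to 0 turned. Median-ratio scaling gave -0.0015 for mt-Nd1, -0.026 for mt-Nd4 and -0.023 for mt-Cytb. Values relative to the summed mitochondrial protein-coding genes gave -0.012 for mt-Nd4 and -0.0092 for mt-Cytb, each line counted once -0.026 and -0.011, and a random effect of the line -0.016 and -0.0052. Quantile normalization moved mt-Cytb to 0.12, mt-Nd1 to 0.07 and mt-Co1 to 0.10, the highest values of these genes among the 13 alternatives. With a sample left out the differences were -0.0086 to 0.061 for mt-Nd1, -0.099 to 0.041 for mt-Nd2, -0.047 to 0.055 for mt-Nd4, -0.064 to 0.038 for mt-Nd5 and -0.056 to 0.052 for mt-Cytb. The ratio of mt-Rnr1 to mt-Rnr2 moved by less than 1 SD when each line counted once, with nuclear copies added and with a sample left out. The rRNA and protein-coding sums did so when each line counted once, the one alternative run for them. No paired analysis was possible because the labels pair no KO clone with an intact sample, and replicate numbers here only name samples. Depth is unknown from TPM, so the zeros carry no detection limit.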
